A study of Saccharomyces cerevisiae with 12 samples.

Results

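The genes described here are the autophagy-related genes of budding yeast that carry an ATG name. They were matched by name alone, as rows of the count table whose name is ATG followed by a number, and 31 of the 7126 rows matched. That group was taken up with earlier results of these data known. All 31 were measured well enough to be tested, with 29 to 2915 counts per gene and library.

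Autophagy carries cytoplasm and organelles to the vacuole, the lysosome of yeast, for breakdown and reuse. The Atg1 kinase complex starts a membrane sac, Atg9 vesicles and lipid transfer by Atg2 extend it, and the ubiquitin-like proteins Atg8 and Atg12 are coupled to lipid and protein targets to shape and load it. In growing yeast the kinase complex TORC1 holds the bulk process low, while the related Cvt pathway steadily delivers enzymes such as aminopeptidase I and alpha-mannosidase to the vacuole.

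RNA selected for poly(A) tails was sequenced from haploid MATa yeast described as BY4741, grown in a synthetic medium whose nitrogen source was ammonium chloride. The 4 groups, written here as crz1 and crz1cnb1 at 0 h and in KCl, held 3 replicates each, 12 libraries in all. Each strain carried his3delta1, leu2delta0, ura3delta0 and lys2delta0, a HYG-marked TEF-promoter GFP (Y66F) cassette on chromosome VI, and a LEU2 replacement of CRZ1, the transcription factor that calcineurin activates. The crz1cnb1 strain also had KanMx in place of CNB1, the regulatory subunit gene of calcineurin. No strain with CRZ1 was used. The 0 h samples were untreated, and the KCl samples had grown in 400 mM KCl for 48 h with dilution every 12 h. No untreated sample was taken at 48 h, so an effect of KCl and an effect of 48 h of culture cannot be told apart. The study asked which changes in long KCl stress need calcineurin when Crz1 is absent.

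Library totals ran from 21305485 to 21599279 counts, and the limit that a count of 0 allows was 0.139 to 0.141 CPM, the counts scaled to library size. CNB1 had 14 to 68 counts in crz1cnb1 and 1346 to 3139 in crz1. The a-cell genes MFA1, MFA2, STE2, BAR1 and STE6 had 4802 to 34280 counts, STE3 of the opposite mating type had 16 to 220, and the meiosis genes IME1, SPO11 and NDT80 had 75 to 335. Libraries with the same replicate number deviated from their group means together, with correlations of 0.309 to 0.827 over all tested genes in 18 pairs of libraries, against -0.732 to 0.317 in the 36 pairs with different numbers. The numbers were therefore taken to pair the samples, less clearly for number 2 across times. In crz1, replicate 2 at 0 h correlated at 0.309 with replicate 2 in KCl and at 0.317 with replicate 1 in KCl. In crz1cnb1 these values were 0.398 and 0.023. Over the ATG genes alone they were 0.083 and 0.549 in crz1, and 0.205 and 0.271 in crz1cnb1. For numbers 1 and 3 the ATG genes gave 0.575 to 0.667 across times within a strain. Results are given without and with the replicate number as a block. Whether replicates came from separate cultures is not stated, and p-values measure only the spread among these samples, which may be technical.

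Short stretches upstream of the coding starts are shown because the promoters of ATG genes are known to be read by stress and nitrogen regulators. Each is given with its gene on the coding strand, in build R64 (RefSeq). In capitals is AGGGG or its complement CCCCT, the stress response element of Msn2 and Msn4, in the first 5 stretches, and GATAAG or its complement CTTATC, the motif of the nitrogen-responsive GATA factors, in the last 2.
ATG8, chrII:80805-80834, minus strand: ggaaatacaaaaAGGGGaaccattaaaggt
ATG8, chrII:80782-80811, minus strand: taaaggttgaggAGGGGattgataagagaa
ATG19, chrXV:168545-168574, plus strand: atgacccggaaaAGGGGcgtgtgacattgc
ATG34, chrXV:165515-165544, plus strand: atggcacacgcaCCCCTaaagtaggtgggg
ATG27, chrX:90415-90444, minus strand: taggaaggagctAGGGGcagacctcagggt
ATG8, chrII:80774-80803, minus strand: gaggaggggattGATAAGagaatctaataa
ATG33, chrXII:839998-840027, plus strand: gggcaagaataaCTTATCgatattttgtat
The second AGGGG stretch of ATG8 overlaps both its first AGGGG stretch and its GATAAG stretch, which do not overlap each other.

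Over the 500 bases before each coding start, read on both strands, AGGGG was found in 15 of the 31 ATG genes (48.4%) and in 34.1% of 6000 windows of the same length. GATAAG was found in 12 (38.7%) against 22.8%, and the Gcn4 motif TGACTC in 7 (22.6%) against 12.7%. Of the 31 windows, 0 held AGCCGCC, the core of the URS1 motif of the repressor Ume6, which 4.15% of all windows held. None held the Crz1 motif GNGGCTCA or GNGGCGCA either, which 3.72% of all windows held. These matches describe letters, not bound sites. Of the genes called below with the replicate block, ATG34, which was higher in KCl, held AGGGG, as did ATG18 and ATG27, which were lower. ATG18 also held GATAAG and TGACTC. ATG15 and ATG33, which were higher, held GATAAG, and ATG7, ATG17 and ATG22, also higher, held none of the 5 motifs. A link between the motifs and the KCl estimates was not tested.

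The ATG mRNAs were of low abundance. Per length, on the TPM scale, which corrects for gene length and depth, the 31 genes ran from a mean of 3.19 for ATG10 to 111 for ATG27 over the 12 libraries, with a median of 12.5. The median of 5859 protein-coding genes was 29.1 TPM, and 26 of the 31 ATG genes lay under it. Together they took 0.0615 to 0.104% of the counts of a library.

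ATG27, which encodes a membrane protein that helps Atg9 move, had 117 ± 4.1 TPM in crz1 at 0 h (SD, n = 3) and stood above every other ATG gene in every library. Next came ATG5, at 50.4 ± 2.8 TPM in the same group, which encodes the protein to which Atg12 is joined, followed by ATG33, ATG22 and ATG12 with means of 40.4, 39.3 and 31.3 TPM over all libraries. ATG8 had 20.9 ± 3.4 TPM in crz1 at 0 h and 17.8 ± 3.0 in crz1cnb1, and ATG1, the kinase gene, 5.22 ± 1.6 and 3.88 ± 0.71. The lowest levels were those of ATG10, ATG9, ATG2 and ATG14, at 3.19, 3.39, 3.45 and 4.10 TPM over all libraries, and their library values overlapped. Of the 31 genes only ATG29 overlapped another annotated gene, SET6, by 24 bases on the opposite strand, and SET6 had 29 to 54 counts. Positions were known for 6048 of the 7126 features, so overlaps with the others were not searched. No stretch of 50 bases in any of the 31 genes occurred elsewhere in the genome.

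**Figure D1:**
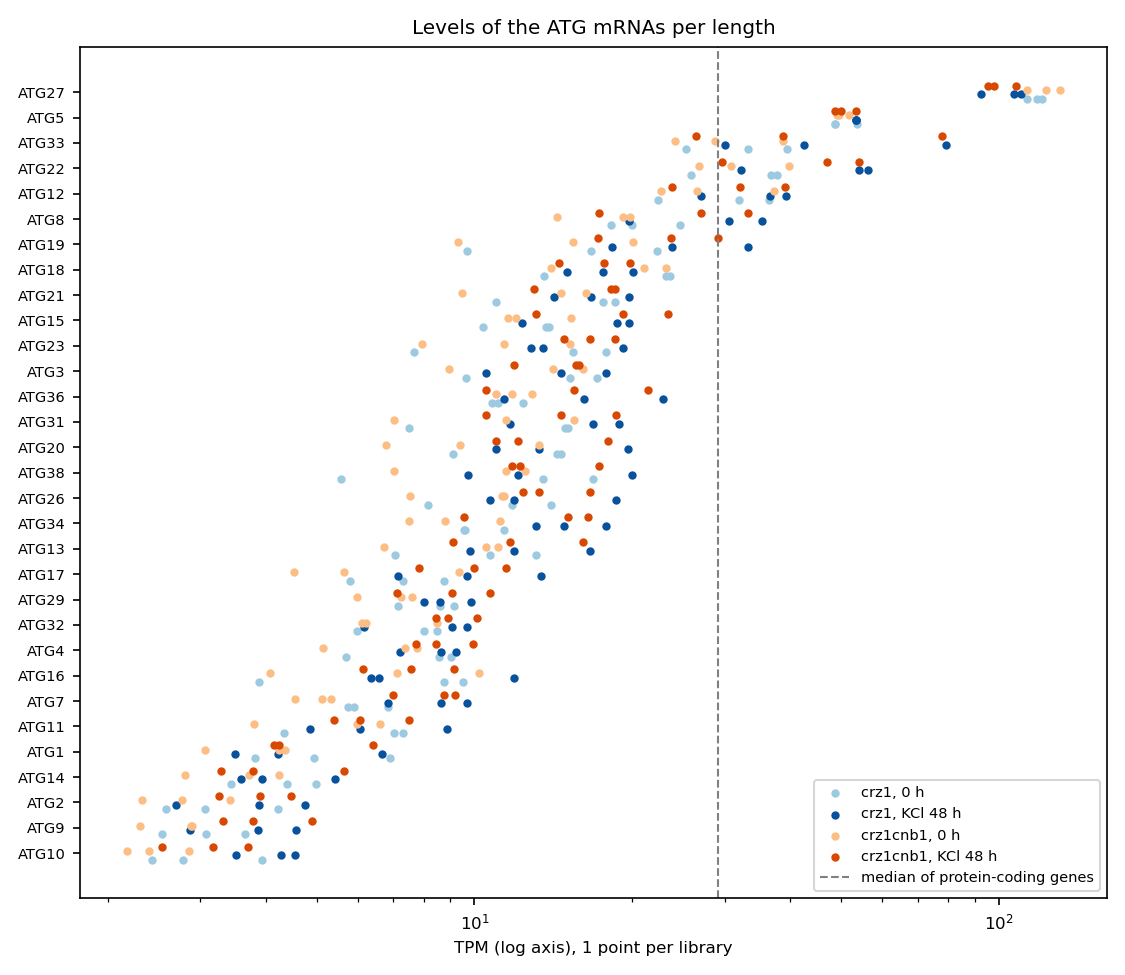
TPM of the 31 ATG genes on a log axis, with 1 point per library coloured by group and genes ordered by their mean. ATG27 stands apart at the top with a mean of 111 TPM, and 26 genes have means under the dashed line, the median of protein-coding genes at 29.1 TPM.

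After 48 h in KCl most ATG mRNAs had slightly higher estimates than at 0 h, and none passed the test without a block. Averaged over the strains, 27 of the 31 log2 differences were positive, with a median of 0.24, where 52.2% of all tested genes were positive with a median of 0.02. In crz1 26 were positive (median 0.16), and in crz1cnb1 25 (median 0.25). The single estimates ran from -0.35 (ATG27) to 0.56 (ATG33 and ATG19) in the average.

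edgeR's quasi-likelihood test over all 12 libraries, adjusted over the 6309 tested genes, called 0 of the 31 in crz1, where 0.571% of all tested genes were called. In crz1cnb1 it called 0 as well, against 0.586%, and 0 in the average of both strains, against 3.77% (2.39% higher and 1.38% lower). At an unadjusted p under 0.05 there were 1, 2 and 5 members, or 3.23, 6.45 and 16.1%, where all tested genes gave 8.5, 8.35 and 16.1%. DESeq2 called 0 members in crz1 (1.7% of all genes), 0 in crz1cnb1 (1.87%, with 1.14% higher) and in the average 1, ATG27, which was lower, against 6.74% of all genes, 4.03% higher and 2.71% lower. The smallest adjusted p in edgeR was 0.105, that of ATG27 in the average.

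When replicate numbers entered as a block, 8 of the 31 were called in the average of both strains (19.1% of all tested genes), 6 higher and 2 lower. Higher were ATG7, ATG15, ATG17, ATG22, ATG33 and ATG34, which is 19.4% of the members beside 10.6% of all tested genes. Lower were ATG18 and ATG27, or 6.45% beside 8.45%. In crz1cnb1 alone the block fit called 2 members beside 4.98% of all genes, ATG7 higher and ATG27 lower, beside 2.68 and 2.3% in those directions. In crz1 alone it called 0 of the 31 beside 4.82% (1.43% lower). In KCl the strains of numbers 1 to 3 correlated at 0.638, 0.817 and 0.827 over all tested genes. Between 0 h and KCl in crz1 the values were 0.498, 0.309 and 0.532. The block does not take up what a number shared within 1 treatment only. The strains are then not independent repeats, and the p-values of the average may look stronger than they are. The number of calls turned on which replicate numbers entered, in fits added after the data were seen. The block fit called 0 members without the libraries numbered 1 (2.3% of all genes) and 0 without those numbered 3 (3.16%). Without those numbered 2 it called 21 (44.6% of all genes), 19 higher beside 23.1% and 2 lower beside 21.5%.

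**Figure D2:**
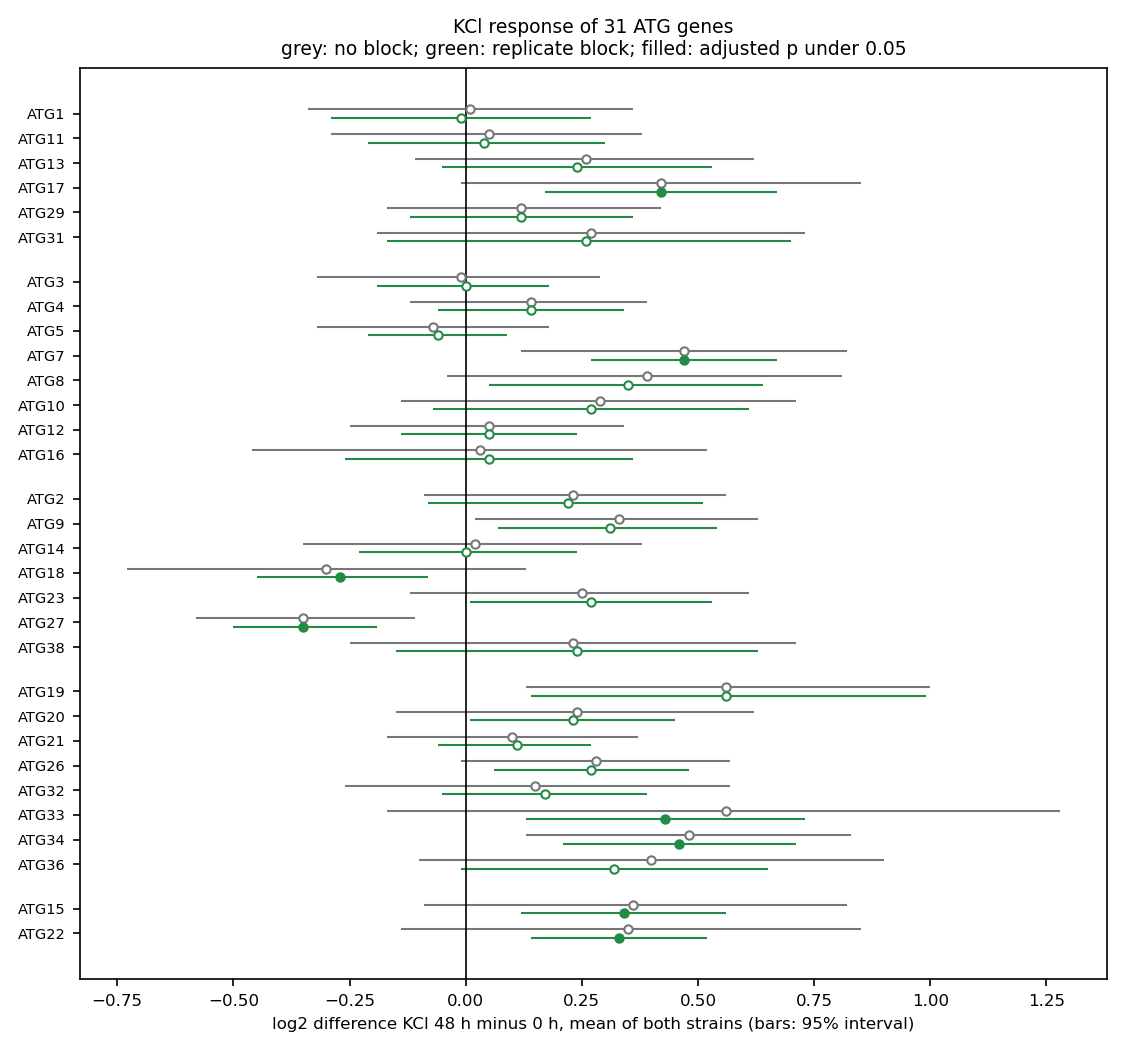
Log2 difference between KCl at 48 h and 0 h, averaged over both strains, for each ATG gene, with 95% intervals. Grey marks the fit without a block, in which 0 genes were called, green the fit with the replicate block, and filled points the 8 genes called there, 6 to the right of 0 and ATG18 and ATG27 to the left.

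The replicate numbers differed in how the ATG genes stood in KCl. In crz1 the median log2 difference between KCl and 0 h was 0.20 in the pair numbered 1, -0.06 in the pair numbered 2 and 0.44 in the pair numbered 3, and 22, 13 and 27 of the 31 genes were positive. In crz1cnb1 the medians were 0.25, -0.08 and 0.55, with 24, 13 and 27 positive. The median over all tested genes lay between 0.00 and 0.05 in each of the 6 pairs. What libraries of the same number shared is not given in the labels, and its part in these values was not tested.

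**Figure D3:**
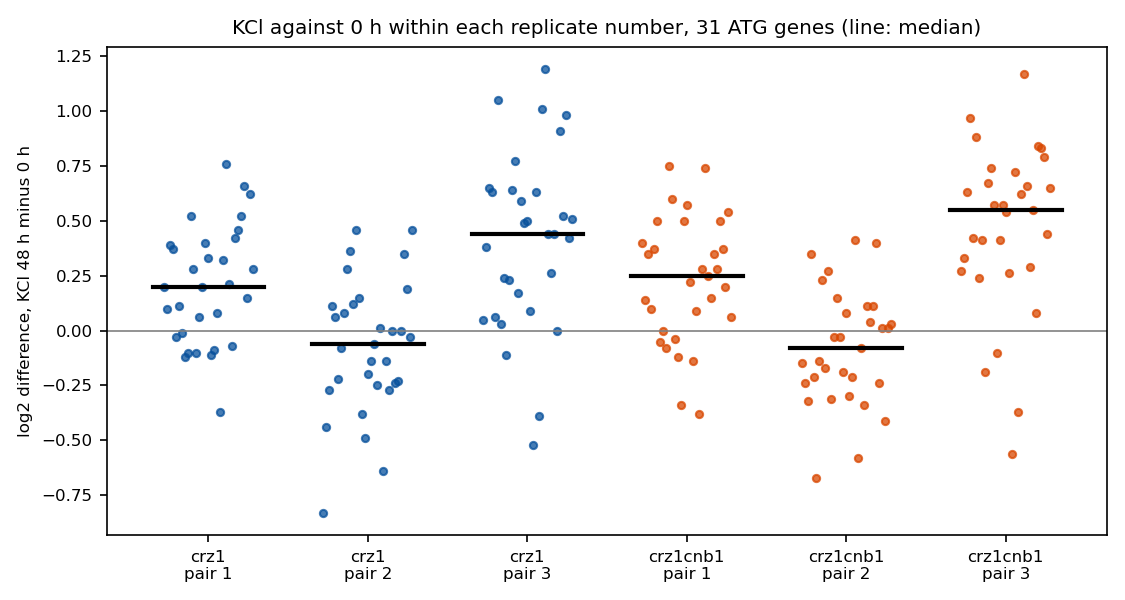
Log2 difference between KCl and 0 h within each replicate number, with 1 point per ATG gene and a line at the median. The medians of the pairs numbered 1 and 3 lie from 0.20 to 0.55 in both strains, and those of the pairs numbered 2 at -0.06 and -0.08.

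Across the 12 libraries, the ATG genes were at their lowest in replicate 3 at 0 h and in replicate 2 in KCl. In crz1 the median deviation of the 31 genes from their own means was 0.10, -0.02 and -0.20 on the log2 scale in replicates 1 to 3 at 0 h, and 0.27, -0.24 and 0.20 in KCl. In crz1cnb1 it was -0.01, -0.08 and -0.27 at 0 h and 0.25, -0.17 and 0.25 in KCl. The KCl libraries had the same signs in both strains, as did replicates 2 and 3 at 0 h, while replicate 1 at 0 h was above 0 in crz1 and near 0 in crz1cnb1. Positive in all 4 pairs numbered 1 and 3 were 19 of the 31 genes (30.5% of all tested genes), a count over pairs picked after their values were seen and given as a description only. In CPM, 4 genes were positive in 6 of 6 pairs, ATG7, ATG17, ATG22 and ATG34, near the share of all tested genes (11.3%). In the crz1cnb1 pair numbered 2 the differences of ATG34 and ATG22 were only 0.01 and 0.03. ATG18 was the member negative in 6 of 6 (8.05%). On the TPM scale ATG17 and ATG18 did not keep 1 sign in all 6. Pairs of both strains with the same number moved together, so the 6 are not independent.

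**Figure D4:**
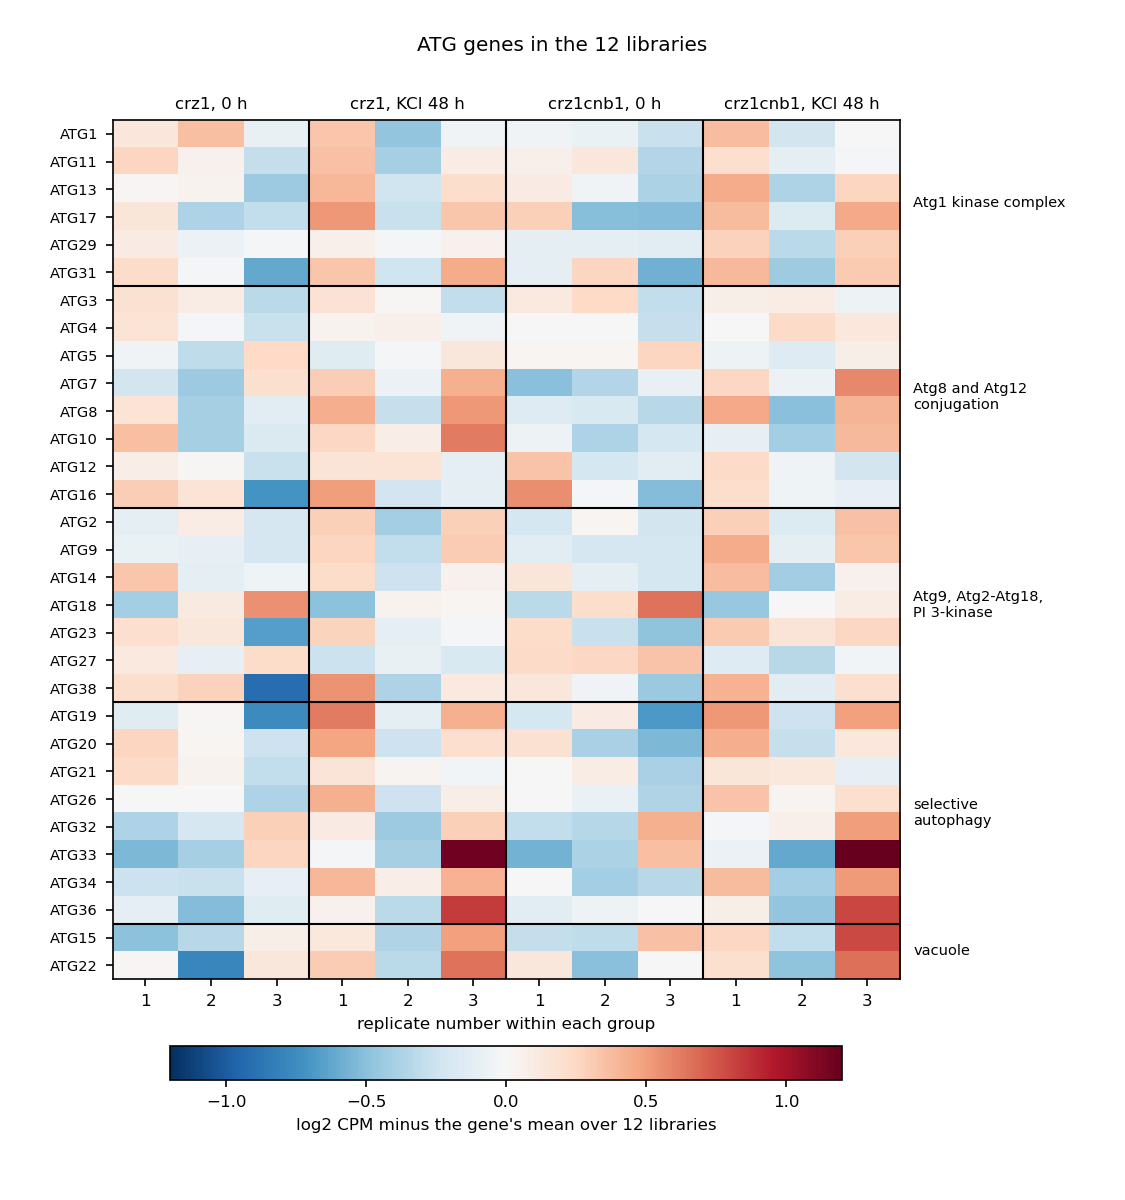
Log2 CPM of each ATG gene in each library minus that gene's mean over the 12 libraries, with genes grouped by role and libraries by group and replicate number. The KCl libraries numbered 1 and 3 are mostly red, and those numbered 2 mostly blue.

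By role, the calls with the block in the average stood beside the 10.6% of all tested genes that were higher and the 8.45% that were lower there, and 1 call in a group of 6 or 8 genes is near those shares. Among the 6 genes of the Atg1 kinase complex and its scaffolds, 1 rose with the block in the average and 0 fell, and their median log2 difference without the block was 0.19. ATG17, the scaffold that gathers the complex in starvation, stood at 14.1, 9.83 and 10.4 CPM in crz1 at 0 h and 18.3, 10.6 and 16.1 in KCl. Its crz1cnb1 values were 15.5, 8.92 and 8.89 CPM and then 16.6, 11.4 and 17.5. The groups overlapped in both strains, and each KCl value in CPM was above the 0 h value of its own number. On the TPM scale replicate 2 in crz1 went from 7.32 to 7.14, and the other pairs were higher in KCl. With the block ATG17 rose by 0.42 ± 0.12 on the log2 scale in the average (SE; 95% interval 0.17 to 0.67; edgeR adjusted p = 0.0281), against an adjusted p of 0.32 without it.

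ATG1 itself stood at 17.1, 19.9 and 14.6 CPM in crz1 at 0 h and 19.6, 11.2 and 15.1 in KCl, so replicate 2 in KCl lay below the controls and the other KCl libraries lay within their range. Its crz1cnb1 values were 15.1, 14.7 and 12.9 CPM and then 20.0, 13.3 and 15.5. The average log2 difference was 0.01 ± 0.16 (95% interval -0.34 to 0.36; edgeR adjusted p = 0.986), and -0.01 ± 0.13 with the block. The other 4 genes of this group had average log2 differences of 0.05 (ATG11, the scaffold of selective autophagy), 0.12 (ATG29), 0.26 (ATG13, the regulatory subunit that TORC1 phosphorylates) and 0.27 (ATG31), and none of the 4 passed the test with or without the block.

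Of the 8 conjugation genes 1 rose with the block and 0 fell, near the share over all genes. ATG7, the E1-like enzyme that activates both Atg8 and Atg12, stood at 13.9, 12.0 and 18.5 CPM in crz1 at 0 h and 19.9, 15.4 and 21.8 in KCl. Its crz1cnb1 values were 11.4, 12.7 and 15.2 CPM and then 19.2, 15.4 and 24.2. The groups overlapped in crz1 and did not overlap in crz1cnb1. With the block ATG7 rose by 0.47 ± 0.09 in the average (edgeR adjusted p = 0.00536; 95% interval 0.27 to 0.67), with 6 of 6 pairs higher, and by 0.56 ± 0.13 in crz1cnb1 (adjusted p = 0.0299). Without the block the values were 0.47 ± 0.16 (adjusted p = 0.145) and 0.58 ± 0.23 (adjusted p = 0.461), and in crz1 it had 0.37 ± 0.13 with the block (adjusted p = 0.12).

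ATG8, whose upstream stretches are printed above, encodes the protein that is coupled to phosphatidylethanolamine and stays in the finished autophagosome. It stood at 11.2, 7.58 and 9.17 CPM in crz1 at 0 h and 13.6, 8.25 and 14.4 in KCl, and in crz1cnb1 at 8.99, 8.83 and 7.95 CPM and then 13.7, 7.09 and 13.3. The KCl libraries numbered 1 and 3 were above all controls of their strain and those numbered 2 were not. The average log2 difference was 0.39 ± 0.20 (95% interval -0.04 to 0.81; edgeR adjusted p = 0.357), and 0.35 ± 0.14 with the block (adjusted p = 0.092). The remaining 6 genes had average log2 differences from -0.07 (ATG5) to 0.29 (ATG10, the E2-like enzyme for Atg12), with ATG3, the E2-like enzyme for Atg8, at -0.01 and ATG4, the Atg8 protease, at 0.14. None of the 6 passed either test. ATG10 was the least counted of all, at 1.49 to 3.05 CPM.

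The 7 genes of Atg9 vesicles, lipid transfer and the lipid kinase complex held both members that fell with the block, and 0 of the 7 rose. ATG27 stood at 123, 106 and 132 CPM in crz1 at 0 h and 95, 107 and 100 in KCl, a span that overlapped in replicate 2. Its crz1cnb1 values were 133, 135 and 144 CPM and then 102, 90.3 and 111, with no overlap. ATG27 fell with the block, at -0.35 ± 0.07 in the average (edgeR adjusted p = 0.00778; 95% interval -0.50 to -0.19), with 5 of 6 pairs lower, and -0.44 ± 0.10 in crz1cnb1 (adjusted p = 0.0317). In crz1 the block gave -0.25 ± 0.10 (adjusted p = 0.193), and without the block the average was -0.35 ± 0.11 (adjusted p = 0.105).

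ATG18, a phosphoinositide-binding partner of Atg2, stood at 26.1, 37.3 and 50.6 CPM in crz1 at 0 h and 24.6, 35.7 and 35.2 in KCl. In crz1cnb1 it stood at 27.7, 40.0 and 54.5 CPM and then 25.2, 34.5 and 36.9. The groups overlapped widely, while each KCl value in CPM was below the 0 h value of its own number. On the TPM scale replicate 1 was instead higher in KCl, at 15 against 13.6 in crz1 and 14.5 against 14 in crz1cnb1. Replicates 2 and 3 stayed lower in KCl in both strains. The block was fitted with TMM scaling only. With the block ATG18 fell by 0.27 ± 0.08 in the average (95% interval -0.45 to -0.08; edgeR adjusted p = 0.0444), against -0.30 ± 0.20 without it (adjusted p = 0.512). The other 5 were ATG9, ATG2, ATG23, ATG14 and ATG38, with average log2 differences of 0.33, 0.23, 0.25, 0.02 and 0.23, and none passed either test. ATG9, the membrane protein that seeds the sac, had 10.8 to 11.4 CPM at 0 h and 11.5 to 17 in KCl in crz1cnb1, with no overlap, and overlapping groups in crz1.

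The 8 genes listed under selective autophagy were positive in each strain, with a median log2 difference of 0.34 in the average. The list is a grouping, and a role of each gene in that process was not tested. With the block 2 rose and 0 fell. ATG34 and ATG19 encode related receptors that lie next to each other on chromosome XV, and both carry alpha-mannosidase to the vacuole. ATG34 stood at 15.2, 15.1 and 17 CPM in crz1 at 0 h and 24.0, 19.2 and 24.4 in KCl, with no overlap, and was the only member whose groups did not overlap in crz1 (6.53% of all tested genes were higher in this way). In crz1cnb1 it stood at 18.3, 13.7 and 14.5 CPM and then 23.7, 13.7 and 25.9, so replicate 2 was not above its control range. With the block ATG34 rose by 0.46 ± 0.11 in the average (95% interval 0.21 to 0.71; edgeR adjusted p = 0.0177), against 0.48 ± 0.16 without it (adjusted p = 0.136).

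ATG19, also the receptor of aminopeptidase I, stood at 26.6, 29.7 and 17.3 CPM in crz1 at 0 h and 45.3, 27.0 and 39.5 in KCl, and in crz1cnb1 at 25.3, 31.5 and 18.2 CPM and then 42.2, 24.8 and 41.2. Replicates 1 and 3 in KCl were above all controls and replicate 2 was within their range in both strains. The average log2 difference was 0.56 ± 0.20 (95% interval 0.13 to 1; edgeR adjusted p = 0.17), and 0.56 ± 0.19 with the block (adjusted p = 0.0638). Without the 4 libraries numbered 2 it was 0.94 and was called.

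ATG33, a mitochondrial membrane protein gene needed for mitophagy, had its spread between replicate numbers as its main feature. It stood at 19.3, 21.2 and 33.4 CPM in crz1 at 0 h and 27.6, 21.2 and 62.7 in KCl, and in crz1cnb1 at 18.9, 21.5 and 35.9 CPM and then 26.7, 18.3 and 64.3. Replicate 3 was the highest of its group in all 4 groups. With the block ATG33 rose by 0.43 ± 0.14 in the average (95% interval 0.13 to 0.73; edgeR adjusted p = 0.0489), against 0.56 ± 0.34 without it (adjusted p = 0.461).

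The mitophagy receptor gene ATG32 stood at 12.2, 13.7 and 19.2 CPM in crz1 at 0 h and 16.8, 11.6 and 19.2 in KCl, and had an average log2 difference of 0.15 ± 0.19. In crz1cnb1 it stood at 12.8, 12.4 and 21.1 CPM and then 15.6, 16.4 and 22.2, and the groups overlapped in both strains. The peroxisome receptor gene ATG36 stood at 14.0, 10.5 and 13.6 CPM in crz1 at 0 h and 15.6, 12.0 and 26.9 in KCl, and in crz1cnb1 at 13.7, 14.4 and 15.1 and then 15.8, 10.8 and 26.2. Its highest library was replicate 3 in KCl in both strains, and its average difference was 0.40 ± 0.23 (edgeR adjusted p = 0.43). ATG20, a sorting nexin gene, ATG21, a phosphoinositide-binding protein gene, and ATG26, a sterol glucosyltransferase gene, had 0.24, 0.10 and 0.28, and none of the 3 passed either test. For ATG26 the groups did not overlap in crz1cnb1, where 42.4 to 54.1 CPM stood against 55.6 to 69.0. It was 1 of 3 members, with ATG7 and ATG9, that were higher in this way in that strain, beside 7.32% of all tested genes, and ATG27 was the 1 that was lower, beside 6.01%.

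Both genes of breakdown in the vacuole rose with the block. ATG15, the lipase that opens autophagic bodies, stood at 20.8, 23.2 and 30.6 CPM in crz1 at 0 h and 31.9, 22.7 and 41.0 in KCl, and in crz1cnb1 at 23.9, 23.6 and 37.4 CPM and then 34.8, 23.8 and 50.7. ATG22, an exporter of amino acids from the vacuole, stood at 76.8, 44.0 and 83.4 CPM in crz1 at 0 h and 93.6, 60.5 and 119 in KCl, and in crz1cnb1 at 83.4, 53.5 and 76.4 CPM and then 86.6, 54.5 and 120. For both genes the groups overlapped in both strains, and replicate 3 in KCl was the highest library. With the block the average log2 differences were 0.34 ± 0.10 for ATG15 (95% interval 0.12 to 0.56; edgeR adjusted p = 0.0384) and 0.33 ± 0.09 for ATG22 (95% interval 0.14 to 0.52; adjusted p = 0.0221). Without it they were 0.36 ± 0.21 and 0.35 ± 0.23 (adjusted p = 0.44 and 0.495).

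The replicate numbers, compared with each other in the block fit over both strains and times, separated many ATG genes. Replicate 2 was lower than the mean of the others in 11 of the 31 and higher in 0, beside 18.3 and 17.5% of all tested genes. This pools times that differed. The median deviation in replicate 2 was -0.02 (crz1) and -0.08 (crz1cnb1) at 0 h, and -0.24 and -0.17 in KCl. Among the 11 genes lower in replicate 2 were ATG22 (-0.79 ± 0.09 on the log2 scale; edgeR adjusted p = 3.17e-04), ATG33 (-0.66 ± 0.15), ATG36 (-0.53 ± 0.16) and ATG15 (-0.48 ± 0.11). Replicate 3 was higher in 8 and lower in 5, beside 26.4 and 27.2% of all genes, with ATG33 at 1.13 ± 0.14 (adjusted p = 1.61e-04), ATG15 at 0.64 ± 0.10 and ATG16, which joins the Atg12-Atg5 conjugate, at -0.52 ± 0.16. Replicate 1 was higher in 5 and lower in 2, beside 9.83 and 9.08%, and ATG18 was its lowest at -0.63 ± 0.09 (adjusted p = 0.00427). These comparisons were made with TMM scaling only. On the TPM scale ATG33 was still highest in replicate 3 in each group. ATG5, called higher in replicate 3, was there the lowest of its group in crz1cnb1, at 49.2 TPM at 0 h and 48.6 in KCl. In bulk RNA, a gene's level per cell and the share of cells that express it cannot be told apart.

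Loss of CNB1 in the crz1 background left no detected difference in any ATG gene. At 0 h edgeR called 0 of the 31 between strains, beside 0.0159% of all tested genes, and in KCl 0, beside 0.0476%. The KCl responses of the strains differed in 0, beside 0%. At an unadjusted p under 0.05 there were also 0 members in each of the 3 comparisons, where all tested genes gave 1.16% at 0 h, 1.11% in KCl and 0.285% for the responses. The fit with the replicate block called 0 in each, beside 0.0793% of all genes at 0 h, 0.0634% in KCl and 0% for the responses. DESeq2 called 0 in each, beside 0.111% at 0 h (0.0634% higher), 0.127% in KCl and 0% for the responses.

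A block of replicate number within each treatment, added after the data were seen, gave the narrowest intervals for these comparisons and again called 0, beside 0.333% of all genes at 0 h, 0.412% in KCl and 0% for the difference of responses. In that fit the crz1 minus crz1cnb1 log2 differences ran from -0.20 (ATG27) to 0.27 (ATG1) at 0 h, and the 31 intervals together from -0.44 to 0.57. In KCl they ran from -0.20 (ATG32) to 0.35 (ATG10), within intervals from -0.47 to 0.71. A larger difference than these bounds lay outside the 95% interval of every ATG gene in that fit. The planned fits allowed larger ones. Without a block the intervals together ran from -1.08 to 0.98 at 0 h and -0.99 to 1.05 in KCl. With the replicate block they ran from -0.68 to 0.68 and -0.59 to 0.82. For the difference of responses they ran from -1.37 to 1.53 without a block and -0.94 to 0.95 with the replicate block. In the nested fit, unadjusted p under 0.05 was reached by 3 members at 0 h (10.8% of all genes), 0 in KCl (6.82%) and 1 for the difference of responses (4.37%).

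The estimates farthest from 0 between the strains did not pass the test. ATG1 had 17.2 ± 2.6 CPM in crz1 and 14.2 ± 1.2 in crz1cnb1 at 0 h (SD, n = 3), a log2 difference of 0.27 ± 0.23 without a block (95% interval -0.22 to 0.76; edgeR adjusted p = 1). ATG20 stood at 35.5, 30.2 and 25.0 CPM in crz1 at 0 h and 33.7, 22.7 and 20.4 in crz1cnb1, a log2 difference of 0.24 ± 0.25. In KCl it stood at 41.1, 25.0 and 34.0 CPM in crz1 and 40.1, 24.5 and 32.3 in crz1cnb1. The strains overlapped at both times, while crz1 was the higher in each of the 6 pairs of the same number. ATG20 was named for its large difference at 0 h, so this sign is a description only. The share of all tested genes with such a sign was not counted. ATG27 was lower in crz1 at 0 h in each library, at 120 ± 13 CPM against 137 ± 5.8, with a log2 difference of -0.19 ± 0.15, and was 1 of 2 members whose strains did not overlap then. The other was ATG29, at 6.29 to 7.07 CPM in crz1 and 6 to 6.15 in crz1cnb1. Of all tested genes 2% were higher and 1.62% lower in crz1 in this way.

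In KCl the farthest estimate was that of ATG10, which stood at 2.35, 2.09 and 3.05 CPM in crz1 and 1.85, 1.49 and 2.59 in crz1cnb1. At 0 h it stood at 2.54, 1.5 and 1.75 CPM in crz1 and 1.90, 1.53 and 1.71 in crz1cnb1. In KCl crz1 was the higher in 3 of 3 pairs of the same number, and the groups overlapped. As ATG10 was picked for the farthest estimate, this sign is a description only. The strain difference in KCl was 0.34 ± 0.27 on the log2 scale (95% interval -0.25 to 0.93). The KCl responses differed most in ATG1, by -0.36 ± 0.32 (crz1 minus crz1cnb1; 95% interval -1.05 to 0.33), ATG23, by -0.27 ± 0.34, and ATG36, by 0.23 ± 0.46. ATG23, a partner of Atg9, stood at 27.0, 25.9 and 14.9 CPM in crz1 at 0 h and 28.4, 21.8 and 23.2 in KCl, and in crz1cnb1 at 27.4, 19.6 and 16.9 and then 29.2, 26.2 and 28. The groups overlapped in both strains.

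Other genes of the pathway were read from lists that hold genes under other names. The 5 genes that RefSeq names ATG39 to ATG42 and ATG44, which the count table lists without these names, were each positive in both strains. Of all tested genes 51.6% were positive in crz1 and 52.9% in crz1cnb1. With the block ATG40, a receptor gene for endoplasmic reticulum, rose by 0.51 ± 0.13 in the average (edgeR adjusted p = 0.0222) and ATG44 by 0.35 ± 0.11 (adjusted p = 0.0496), and without it 0 of the 5 were called. With the block 10.6% of all tested genes were higher. In replicate 2, ATG40 went from 14 to 12.4 CPM in crz1cnb1 and from 11.9 to 14.3 in crz1. There ATG44 went from 17.3 to 16.7 CPM in crz1 and from 19.6 to 23.7 in crz1cnb1. ATG40 went from 13.1 ± 1.0 to 19.8 ± 5.9 CPM in crz1 and from 14.1 ± 0.25 to 20.1 ± 6.7 in crz1cnb1 (SD, n = 3).

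Among 8 genes of vacuolar cargo and hydrolases, AMS1, the alpha-mannosidase that Atg19 and Atg34 carry, was the 1 that rose without a block. Of all tested genes 2.39% were called higher in that fit. It stood at 8.56, 10.6 and 9.01 CPM in crz1 at 0 h and 28.2, 13.1 and 31 in KCl, and in crz1cnb1 at 9.71, 9.34 and 7.30 and then 30.4, 15.4 and 28.2. The groups did not overlap in either strain, and replicate 2 was the lowest of the KCl libraries. AMS1 rose by 1.42 ± 0.22 on the log2 scale in the average (edgeR adjusted p = 0.0035). With the block PEP4 (proteinase A) rose by 0.54 ± 0.11 and PRB1 (proteinase B) by 0.89 ± 0.25, and APE4, an aminopeptidase gene, fell by 0.37 ± 0.09, while the other 4 were not called. That is 3 of 8 higher and 1 lower, beside 10.6 and 8.45% of all tested genes. In replicate 2, PRB1 went from 35.9 to 22.3 CPM in crz1 and from 24.1 to 34.4 in crz1cnb1.

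Of 9 further autophagy genes such as VPS30, VPS34 and SNX4, 0 were called in either fit, with a median of 0.06 and SNX4, a sorting nexin gene, the farthest at 0.18 ± 0.15. Of 13 genes of vacuole fusion, VPS41, a subunit of the HOPS tethering complex, rose with the block by 0.29 ± 0.08. Of 22 genes of TORC1 and the kinases that control autophagy, 3 (NPR2, GTR1 and TAP42) rose with the block by 0.25 to 0.29, and PHO80, a cyclin gene, fell by 0.36 ± 0.08. Of 16 transcriptional and RNA regulators of ATG genes, DHH1, an RNA helicase gene, fell with the block by 0.29 ± 0.09. In these 4 lists 0 genes were called without a block, and their counts with it were near or under the 10.6% higher and 8.45% lower among all tested genes.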

How the data were processed

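Gene counts and TPM values were used as the authors deposited them. The submitters' processing notes name featureCounts, DESeq2 and build R64, with no version or role of the tools; no aligner, annotation release or strand setting was found in these sources. Count totals were 21305485 to 21599279 per library. TPM, per the file headers, was used to compare levels between genes. For ATG5, ATG17, ATG18 and ATG33 it was also set beside the CPM order of libraries, and no test used it. The 31 members and all lists were chosen with earlier results of these data known.

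Counts were tested in edgeR 4.0.16 (R 4.3.3) with TMM scaling (factors 0.791 to 1.17), filterByExpr, a model with the 4 groups, glmQLFit (robust) and glmQLFTest on all 12 libraries, with Benjamini-Hochberg adjustment at 0.05 over 6309 genes. CPM values are TMM-scaled. Standard errors are the log2 difference over the root of F, and intervals use the test's t distribution. Values within pairs add 0.1 CPM. The numbers were taken to pair the samples through the correlations given above, less clearly for number 2 across times, since no label names a shared day. The alternatives were DESeq2 1.42.0 and its size factors, no filter, the replicate block, and left-out libraries; the block nested in treatment and the block without each replicate number were added after the data were seen, as was the comparison of replicate numbers. Members were named by rule: those called in either fit, the 3 farthest from 0 in each comparison, and ATG1 and ATG8. Simulated data with independent libraries held 50 changed genes at each fold among 6309 genes, for the KCl response in crz1. The fit without a block recovered 7, 35, 50 and 50 of them at 1.5-, 2-, 4- and 8-fold. With the replicate block the numbers were 5, 35, 50 and 50. The changed genes came from a middle range of CPM that left out levels as low as that of ATG10 or as high as that of ATG27.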

Additional observations from a re-analysis of the deposited data

How the results depend on the processing

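For the KCl response averaged over strains, 0 ATG genes were called without a block, 1 by DESeq2 and 8 with the replicate block, and 0 to 1 when a library or a replicate number was left out (1, ATG34, without crz1cnb1 KCl replicate 2, and 1, ATG19, without all libraries numbered 2). With the replicate block and no libraries numbered 2 the count was 21 (44.6% of all tested genes), and 11 in crz1 (25.9%) and 13 in crz1cnb1 (23.8%). In crz1cnb1 the replicate block gave 2, and left-out libraries gave 0. The counts of crz1 and of the strain comparisons stayed at 0 under the other alternatives. The median log2 difference of the members lay at 0.05 to 0.36 in the average, 0.05 to 0.36 in crz1 and 0.11 to 0.41 in crz1cnb1 when libraries were left out.

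Signs turned for some members near 0, and the cause was not tested. The average for ATG1 was -0.01 with DESeq2 size factors, with no filter, in DESeq2 and with the replicate block, -0.18 to 0.24 with libraries left out, and -0.18 and -0.10 with the replicate block without numbers 1 and 3. ATG1 in crz1 ran from -0.41 to 0.13, and was 0.13 with the block without number 2. With libraries left out, the ranges in crz1 were -0.01 to 0.89 (ATG33), -0.10 to 0.30 (ATG23), -0.04 to 0.31 (ATG20), -0.12 to 0.30 (ATG32) and -0.47 to 0.01 (ATG18). In crz1cnb1 they were -0.18 to 0.85 (ATG33), -0.12 to 0.54 (ATG36), -0.05 to 0.37 (ATG10) and -0.01 to 0.54 (ATG22). With the block without number 3, ATG23 had -0.10 and ATG20 -0.04 in crz1, and ATG36 -0.12 and ATG10 -0.05 in crz1cnb1. Without number 1, ATG32 in crz1 had -0.14. The difference of responses of ATG36 ran from -0.16 to 0.64, and the strain difference of ATG15 in KCl from -0.42 to 0.13. On simulated counts with independent libraries, the fit without a block recovered 7 of 50 changes at 1.5-fold and 35 of 50 at 2-fold. With the replicate block these were 5 and 35.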

Other observations

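Some genes of the pathway that are not among the 31 had KCl libraries that lay far apart by replicate number. ATG42, a vacuolar carboxypeptidase gene, stood at 108, 35.7 and 165 CPM in crz1 in KCl beside 52.3 to 71.5 at 0 h, and at 107, 43.9 and 176 in crz1cnb1 beside 72.2 to 81.6. In both strains replicate 2 in KCl lay below every control and replicates 1 and 3 above. In ATG41 replicate 2 was instead the highest KCl library, with 20.7, 38.2 and 23.4 CPM in crz1 in KCl beside 17.7 to 23.2 at 0 h, and 22.1, 33.6 and 20.3 in crz1cnb1 beside 14.8 to 22.8. These genes were picked after their values were seen and were not called in the average of both strains, and no test of their order was run.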
